A study of Arabidopsis thaliana with 6 samples.

Results

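The genes described here are 10 genes of indole glucosinolate synthesis in *Arabidopsis thaliana*, of 33316 genes in the deposited tables. They were taken by their gene codes, and they had been chosen with the difference between Dex-treated and mock-treated libraries in view. Their differences between these groups are therefore a description. Which of them passed the threshold of the fit over all genes is stated as part of it, and supports nothing. They are the regulators *MYB34*, *MYB51* and *MYB122*, the enzyme genes *CYP79B2*, *CYP79B3*, *CYP83B1*, *SUR1*, *UGT74B1* and *SOT16* of the core pathway, and *CYP81F2*, whose enzyme modifies the finished compound. Messenger RNA was measured by RNA sequencing in second internodes of plants labelled *p35S:Myc-GR-bdl*, in 3 libraries of mock-treated plants (Mock) and 3 libraries of plants treated with 15 µM dexamethasone (DEX), collected after 3 h. The plants of both groups carried the same transgene, were 15 to 20 cm tall, and had spent 3 weeks in short days (8 h light) before long days (16 h light). The growth notes speak of Col-0 wild type, but the sample titles carry the transgene's name, and that genotype is used here. The transgene encodes bdl, a stabilized form of the auxin response repressor BODENLOS, fused to the glucocorticoid receptor, so that dexamethasone (Dex) lets it enter the nucleus. It is driven by the broadly active 35S promoter, and no plants without it were analysed here, so an effect of Dex itself and one of bdl cannot be told apart. The labels speak of pooled RNA, so the spread between libraries may be one between pools. Each group is a whole internode, in which fewer cells of a type and less RNA per cell cannot be told apart.

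Glucosinolates are sulfur-rich thioglucosides of the cabbage order that myrosinases split into toxic products when tissue is damaged, and those made from tryptophan are called indole glucosinolates. CYP79B2 and CYP79B3 convert tryptophan to indole-3-acetaldoxime, a compound from which camalexin and auxin can also be made. CYP83B1 oxidizes the aldoxime and commits it to glucosinolates, the C-S lyase SUR1 releases the thiol after conjugation with glutathione, the glucosyltransferase UGT74B1 adds glucose, and the sulfotransferase SOT16 adds sulfate. The R2R3-MYB factors MYB34, MYB51 and MYB122 activate these genes together with MYC factors. CYP81F2 hydroxylates the indole ring and is known for its role in defence against fungi and aphids.

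The libraries held between 30601253 and 37812400 total gene reads, of which 96.4% to 96.9% were unique. After a filter on low counts 19598 genes were tested with the quasi-likelihood test of edgeR, and 11.9% of them passed an adjusted p of 0.05, 6.38% as higher and 5.50% as lower in DEX. Which direction had more calls depended on the scaling, with 1016 genes higher and 1278 lower when library totals were used alone. All 10 genes passed the filter, with 2 to 19552 reads in a library, and all of their reads were unique. The 6 stem and vascular markers *PXY*, *WOX4*, *CESA7*, *APL*, *SUC2* and *ATML1* were present at 3.68 CPM or more in every library, and their summed level was 1473 to 1616 CPM in Mock and 1304 to 1573 CPM in DEX. The floral genes *AP1*, *AP3* and *AG* did not exceed 0.0818 CPM in any library. The root gene *PIN2* ranged from 0.676 to 0.773 CPM in Mock and from 1.05 to 1.53 CPM in DEX. Most of the stem sum was *CESA7*, a gene of the secondary wall. The cambium gene *WOX4* fell by 1.89 on the log2 scale. The cambium gene *PXY* was at 199, 162 and 156 CPM in Mock against 132, 145 and 82.3 CPM in DEX, and the phloem gene *SUC2* at 230, 283 and 283 against 162, 172 and 228 CPM. The phloem gene *APL* was at 13.0, 12.3 and 12.9 CPM in Mock against 20.0, 15.7 and 16.0 CPM in DEX. The groups did not overlap for these 3 genes, nor for *WOX4* and *ATML1*, while 28.3% of all tested genes did not overlap. Of the 6 markers only *CESA7* overlapped, and only *WOX4* passed the threshold. Whether these markers had a part in the values below was not tested.

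The 10 genes lie on 4 chromosomes, and none overlaps another annotated gene in the reference TAIR10.1. *MYB34* (AT5G60890) lies on chromosome 5 from 24494291 to 24496371 on the plus strand, *MYB51* (AT1G18570) on chromosome 1 from 6389399 to 6391386 on the plus strand, and *MYB122* (AT1G74080) on chromosome 1 from 27855578 to 27857598 on the plus strand. *CYP79B2* (AT4G39950) occupies 18525042 to 18527602 of chromosome 4 on the plus strand, and *CYP79B3* (AT2G22330) occupies 9488413 to 9491404 of chromosome 2 on the plus strand. *CYP83B1* (AT4G31500) is at 15273410 to 15275404 of chromosome 4 on the minus strand, *SUR1* (AT2G20610) at 8877887 to 8880440 of chromosome 2 on the minus strand, and *UGT74B1* (AT1G24100) at 8525334 to 8527087 of chromosome 1 on the minus strand. *SOT16* (AT1G74100), a gene of 1 exon, runs from 27864345 to 27865694 of chromosome 1 on the minus strand, near *MYB122*. *CYP81F2* (AT5G57220) runs from 23187840 to 23189902 of chromosome 5 on the plus strand. The coding sequences of *CYP79B2* and *CYP79B3* were 78.2% identical, with no identical run above 32 bases, which is shorter than a read of this study. Among the regulators, *MYB51* and *MYB122* were 67.7% identical in their coding sequences, *MYB34* and *MYB122* 57.4%, and *MYB34* and *MYB51* 56.6%.

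The windows of 250 bases before the annotated starts of *CYP79B2* and *CYP79B3* are shown because these genes encode the same step, had the largest differences of the core enzyme genes, and shared a stretch of sequence. Capitals mark runs of at least 12 bases that both windows hold. The sequences are from RefSeq (TAIR10.1), written 5′ to 3′ on the strand of the gene, from chr4:18524792-18525041 and chr2:9488163-9488412, both on the plus strand.
CYP79B2: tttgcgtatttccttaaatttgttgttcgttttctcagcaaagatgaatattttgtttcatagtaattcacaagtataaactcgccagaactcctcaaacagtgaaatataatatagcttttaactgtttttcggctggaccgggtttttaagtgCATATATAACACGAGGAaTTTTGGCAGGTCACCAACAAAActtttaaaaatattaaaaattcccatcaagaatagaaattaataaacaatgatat
CYP79B3: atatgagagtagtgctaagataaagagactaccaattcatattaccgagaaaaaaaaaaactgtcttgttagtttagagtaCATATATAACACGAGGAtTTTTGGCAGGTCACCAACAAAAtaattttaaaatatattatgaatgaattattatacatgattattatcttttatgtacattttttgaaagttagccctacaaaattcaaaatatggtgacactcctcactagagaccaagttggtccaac
The shared stretch covered 40 bases, a run of 17 and a run of 22 parted by 1 base that differed. It began 95 bases before the start of *CYP79B2* and 169 bases before that of *CYP79B3*. Of 27443 windows of protein-coding genes, 2 held the run of 17 and 2 held the run of 22, which are the windows of these genes. The letters ACCAAC inside the run of 22, looked for after the windows had been seen, were found on either strand in the windows of 4 of the 10 genes, *CYP79B2*, *CYP79B3*, *UGT74B1* and *SOT16*, and in 11.5% of all windows. The matches in *CYP79B2* and *CYP79B3* were given in advance, since the letters were taken from their shared run. Nothing is therefore read from the count beside the share.

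The window before *CYP81F2* (RefSeq TAIR10.1, chr5:23187590-23187839, plus strand) is shown because it belongs to the gene that was lower in DEX, and because it held the auxin response element letters TGTCTC. Capitals mark the matches of the searched letters on either strand.
CYP81F2: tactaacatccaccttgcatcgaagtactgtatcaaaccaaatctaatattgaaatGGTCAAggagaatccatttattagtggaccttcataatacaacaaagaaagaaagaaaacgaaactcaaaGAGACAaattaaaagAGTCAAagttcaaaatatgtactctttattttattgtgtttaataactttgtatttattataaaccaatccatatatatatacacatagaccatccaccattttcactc
The letters TGTCTC began 124 bases before the start, on the other strand, and W-box letters (TTGACC or TTGACT) stood at 194 and 109 bases. No match overlapped another. Of the 10 windows, TGTCTC was in 1, that of *CYP81F2*, and in 10.9% of all windows. The second auxin response element, TGTCGG, was in 0 of the 10 windows and in 4.16% of all. The G-box CACGTG, which MYC factors bind, was in 1 of 10, that of *SUR1*, and in 6.49% of all. W-box letters were in 2 of 10, those of *SUR1* and *CYP81F2*, and in 28.4% of all. In windows of 1000 bases the G-box was in 1 of 10 against 14.8% of all, TGTCTC in 3 of 10 against 39.6%, TGTCGG in 2 of 10 against 14.6%, and W-box letters in 8 of 10 against 67.3%. A match of letters is not a binding site.

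In Mock, levels per length (RPKM) fell into enzymes of the later core steps, far above the rest, and regulators and *CYP81F2* at the low end. *SUR1* stood highest at 235 ± 30.9 RPKM (mean ± SD, n = 3 here and for all values below), above every library of the next gene. *UGT74B1* at 137 ± 24.0, *CYP83B1* at 119 ± 10.005 and *SOT16* at 107 ± 15.7 RPKM followed, and neighbours in this order overlapped. The genes of the aldoxime step were lower than *SOT16* in every Mock library, *CYP79B3* at 13.8 ± 2.39 and *CYP79B2* at 8.78 ± 0.582 RPKM, without overlap between them. The regulators followed with *MYB51* at 4.31 ± 1.96, *MYB122* at 2.18 ± 0.112 and *MYB34* at 1.24 ± 0.946 RPKM. *MYB122* and *MYB34* overlapped, as did *MYB34* and *CYP81F2*, which was lowest at 0.786 ± 0.122 RPKM. In DEX, *SUR1* (287 ± 54.2 RPKM) and *CYP83B1* (272 ± 23.5 RPKM) overlapped at the top, and *MYB34* (13.8 ± 8.95 RPKM) had the highest mean of the 3 regulators. In DEX 3, however, *MYB51* was above *MYB34*, at 6.26 against 5.33 RPKM. *CYP81F2* was again lowest, at 0.0893 ± 0.0702 RPKM.

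**Figure D1:**
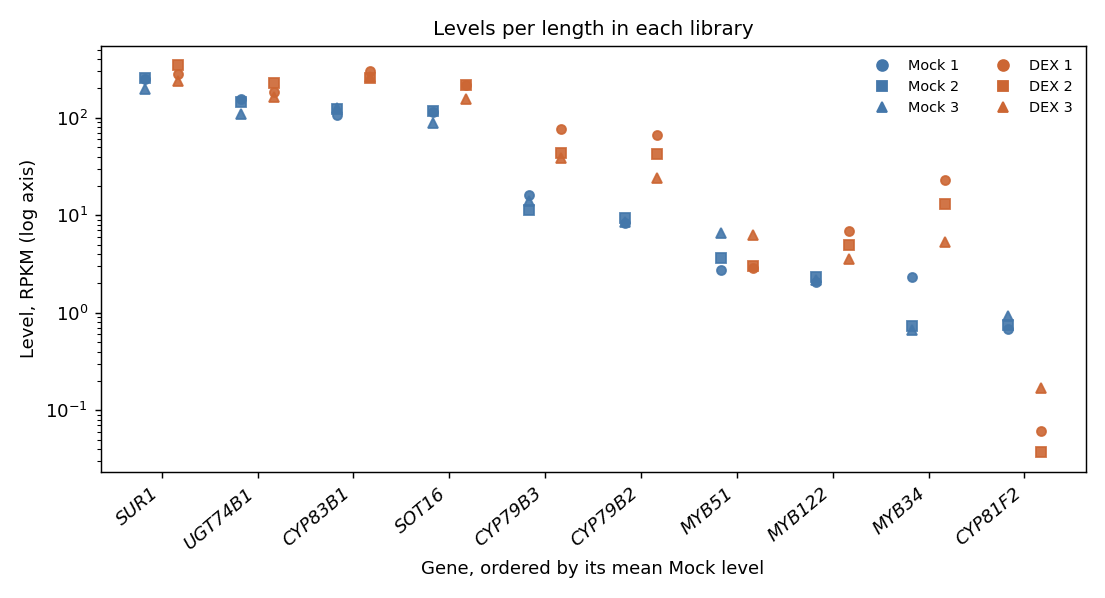
Level of each of the 10 genes in every library (RPKM, log axis), ordered by the mean Mock level, with Mock in blue, DEX in orange and a symbol for each replicate number. The 4 later core enzyme genes lie at 89.4 RPKM or more in every library, while *CYP79B3*, *CYP79B2* and *MYB34* sit clearly higher in DEX and *CYP81F2* clearly lower.

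Between DEX and Mock, 6 of the 10 genes were past the threshold as higher, *MYB34*, *MYB122*, *CYP79B2*, *CYP79B3*, *CYP83B1* and *SOT16*, against 6.38% of all tested genes. *CYP81F2* was past it as lower, against 5.50%, and the other 3, *MYB51*, *SUR1* and *UGT74B1*, were not past it. The values of DEX and Mock did not overlap for 8 of the 10, against 28.3% of all tested genes. These shares describe genes that had been picked on this difference, and nothing is read from them. Their median log2 fold change was 1.10, beside -0.0076 over all tested genes. Fold changes below are on the log2 scale from total gene reads with their SE, and levels are CPM after TMM scaling.

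*MYB34*, also known as *ATR1*, an activator of the tryptophan and indole glucosinolate genes, was at 3.12, 0.972 and 0.876 CPM in Mock 1, 2 and 3 and at 32.9, 17.7 and 7.44 CPM in DEX 1, 2 and 3. Every DEX library was above every Mock library, and within each group library 1 was the highest. The log2 fold change was 3.57 ± 0.67, or 11.9-fold, the largest of the 10 genes. Without Mock 2 it was 3.30 and not past the threshold, and it ranged from 2.94 to 4.39 with 1 library left out.

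*MYB122*, a close relative of *MYB51*, was at 2.86, 3.15 and 2.94 CPM in Mock and at 9.95, 6.81 and 5.07 CPM in DEX. The Mock libraries were nearly level, the DEX libraries lay apart, and the groups did not overlap. The log2 fold change was 1.29 ± 0.25 (2.44-fold). It was 1.26 without Mock 1 and 1.33 without Mock 2, and in neither of these fits past the threshold. With 1 library left out it ranged from 0.99, without DEX 1, to 1.49.

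*MYB51*, also known as *HIG1*, was at 4.47, 5.92 and 10.5 CPM in Mock and at 5.02, 4.95 and 10.7 CPM in DEX, so that the groups covered nearly the same range, with library 3 highest in both. The log2 fold change was -0.02 ± 0.40, and with 1 library left out it lay between -0.49 and 0.40, a range that does not fix a direction.

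The make-up of the regulator transcripts was different in the 2 groups. *MYB34* held 32.6%, 10.9% and 7.11% of the summed RPKM of the 3 genes in Mock and 70.3%, 62.2% and 35.3% in DEX, where all 3 shares were above every Mock share. The ratio of *MYB34* to *MYB51* went from 0.851, 0.200 and 0.102 in Mock to 7.98, 4.35 and 0.851 in DEX. DEX 3 thus matched Mock 1 in this ratio. The summed level of the 3 genes was 7.17, 6.72 and 9.32 RPKM in Mock and 33.0, 20.8 and 15.1 RPKM in DEX. These ratios rest on the values that chose the genes.

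**Figure D2:**
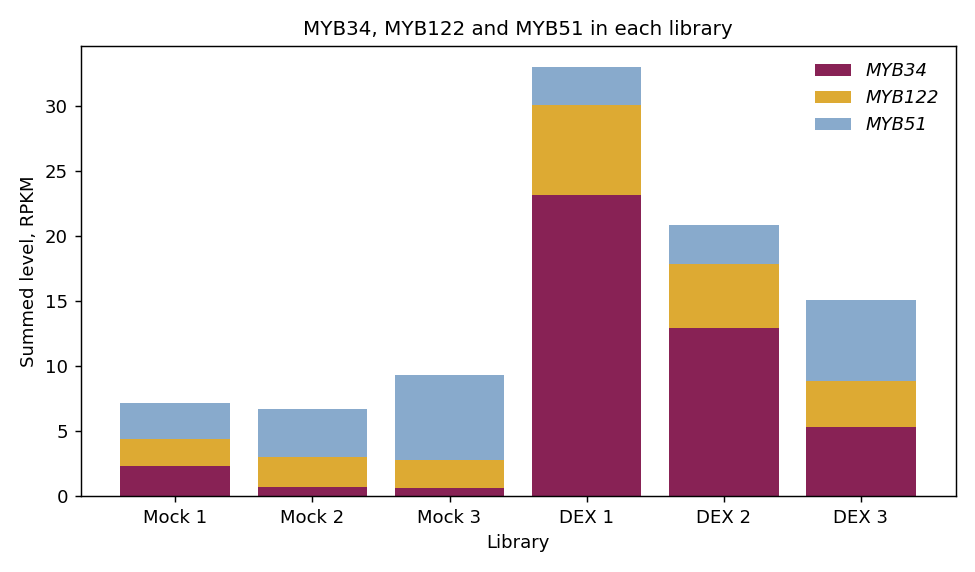
Stacked level (RPKM) of *MYB34*, *MYB122* and *MYB51* in each library, 1 bar per library. *MYB51* makes up most of the bar in Mock 2 and Mock 3, and *MYB34* makes up 70.3% of the bar in DEX 1 and 35.3% in DEX 3.

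At the aldoxime step, *CYP79B2* was at 16.3, 18.2 and 16.6 CPM in Mock and at 137, 84.0 and 48.8 CPM in DEX. The Mock values were close together, and the lowest DEX library was still well above them. The log2 fold change was 2.40 ± 0.34 (5.28-fold), and with 1 library left out it ranged from 1.96, without DEX 1, to 2.70. *CYP79B3* was at 30.0, 21.1 and 25.7 CPM in Mock and at 151, 84.0 and 77.0 CPM in DEX, again without overlap and with DEX 1 highest. Its log2 fold change was 2.02 ± 0.27 (4.06-fold), and with 1 library left out it ranged from 1.66, without DEX 1, to 2.20. The levels of the pair per length stood in a ratio (*CYP79B2* to *CYP79B3*) of 0.515, 0.829 and 0.618 in Mock and 0.871, 0.959 and 0.611 in DEX, which overlapped, and *CYP79B3* was the higher of the pair in every library. *CYP79B3* was also on a list that the study drew up partly from these libraries.

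*CYP83B1*, also known as *SUR2*, whose loss diverts the aldoxime to auxin, was at 185, 210 and 214 CPM in Mock and at 545, 448 and 469 CPM in DEX. Both groups were tight, and the log2 fold change was 1.26 ± 0.12 (2.40-fold), with the smallest SE of the 10 genes. Its values did not follow the order of libraries seen for the aldoxime genes, since DEX 2 was its lowest DEX library.

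The steps after *CYP83B1* had smaller differences. *SUR1* was at 432, 436 and 340 CPM in Mock and at 511, 609 and 429 CPM in DEX, and DEX 3 lay below Mock 1 and Mock 2. Its log2 fold change was 0.36 ± 0.16. *UGT74B1* was at 242, 221 and 168 CPM in Mock and at 301, 361 and 261 CPM in DEX, without overlap, and its log2 fold change was 0.55 ± 0.17. *UGT74B1* was past the threshold with DESeq2 but not with edgeR. *SOT16* was at 154, 154 and 118 CPM in Mock and at 306, 297 and 215 CPM in DEX, without overlap, with a log2 fold change of 0.94 ± 0.17 (1.92-fold).

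Library 3 was the lowest of its group for *SUR1*, *UGT74B1* and *SOT16* in both groups. The balance along the pathway can be put as the summed level per length of *CYP79B2* and *CYP79B3* relative to *SUR1*. It was 9.76%, 8.16% and 11.3% in Mock and 51.0%, 24.9% and 26.4% in DEX. The level of *CYP83B1* relative to *SUR1* was 0.429, 0.485 and 0.631 in Mock and 1.07, 0.739 and 1.10 in DEX. Both ratios lay higher in every DEX library than in every Mock library, and both again rest on the values that chose the genes.

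*CYP81F2* was the gene with a difference in the other direction. It had 36, 43 and 60 reads in Mock and 4, 2 and 11 reads in DEX, or 1.16, 1.27 and 1.55 CPM against 0.112, 0.0639 and 0.300 CPM. No DEX library reached a Mock library, although the values in both groups were low. The log2 fold change was -3.004 ± 0.45 (8.02-fold lower), and it ranged from -3.84 to -2.66 with 1 library left out. It rests on 17 reads over the 3 DEX libraries. The fold is smaller on other scales, with a log2 difference of -0.71 on log2(RPKM + 1).

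**Figure D3:**
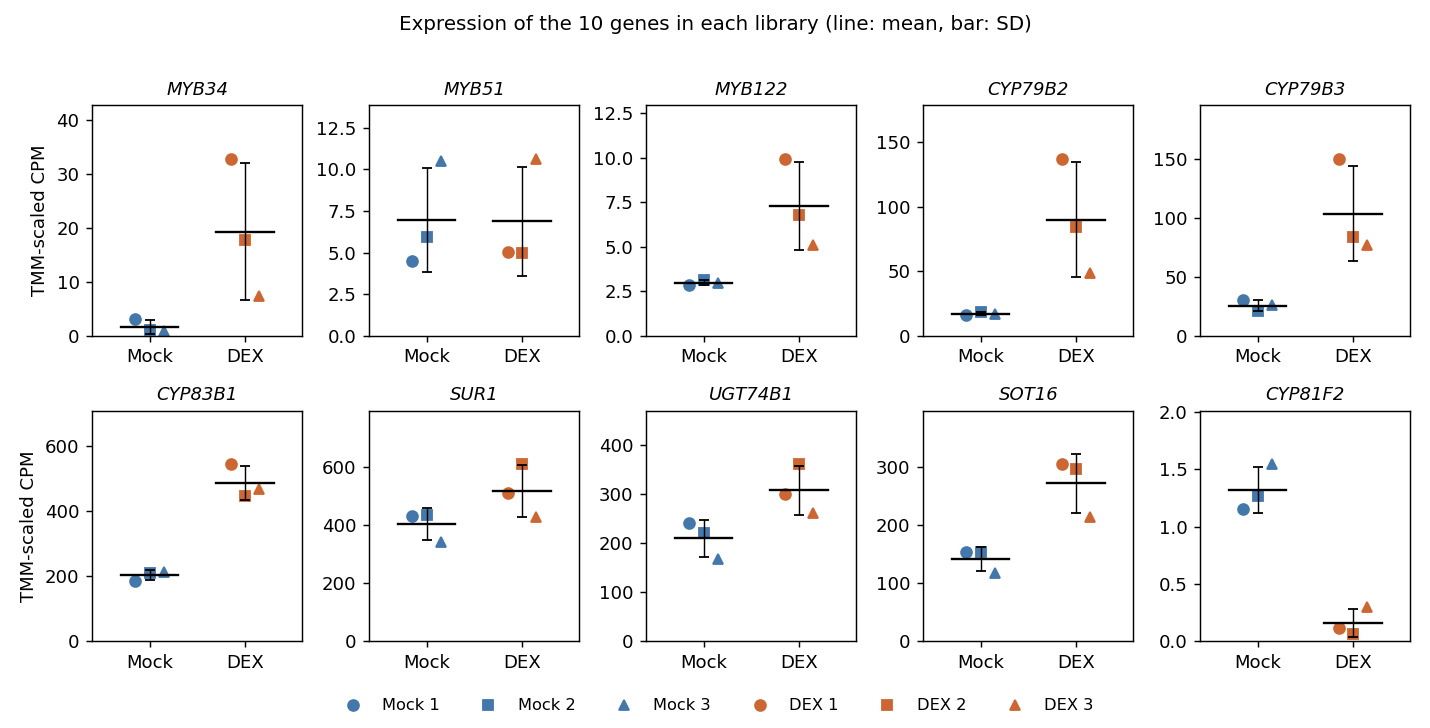
TMM-scaled CPM of each of the 10 genes in the 3 Mock libraries (blue) and 3 DEX libraries (orange), on a linear axis from 0 in each panel, with the mean as a line and the SD as a bar. DEX 1 is the highest DEX library for 6 genes, *MYB51* spans the same range in both groups, and *CYP81F2* is at 0.300 CPM or less in DEX.

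The genes differed in how far replicates lay apart. The ratio of the highest to the lowest DEX library was 4.69 for *CYP81F2*, 4.42 for *MYB34*, 2.81 for *CYP79B2*, 2.15 for *MYB51*, 1.96 for *MYB122* and 1.96 for *CYP79B3*, against a median of 1.25 and a 95th percentile of 2.41 over all tested genes. It was between 1.22 and 1.42 for *CYP83B1*, *UGT74B1*, *SUR1* and *SOT16*. In Mock, *MYB34* at 3.56 and *MYB51* at 2.34 were beyond the 95th percentile of 2.17, and *MYB122* at 1.10 and *CYP79B2* at 1.12 were under the median of 1.20. The regulators and the aldoxime genes were less even among DEX libraries than the later core enzymes. Reads over introns were few, with 165 in Mock and 199 in DEX for *SUR1*, 58 and 70 for *UGT74B1*, 10 and 43 for *CYP83B1*, 0 and 8 for *MYB34* and 0 and 10 for *CYP79B3*, each over 3 libraries.

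The other genes of the pathway were read from 7 lists with 79 genes in all, of which 66 passed the filter. In the same fit 18 of them rose and 2 fell, and 46 did not pass. Their median log2 fold change was 0.33, and the counts stand beside 6.38% and 5.50% of all tested genes. These lists too were chosen with earlier results of these data known, so the counts are a description and nothing is read from them. The count of those that rose was 7 without Mock 2, 8 without Mock 3, 10 without DEX 2 and 11 without DEX 1. Every adjusted p of these lists is from edgeR's quasi-likelihood test.

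Of the 6 other regulators, *MYC5* had 1 read in all and was not tested, 4 rose and 1 fell. *MYC2*, a bHLH factor of jasmonate signalling, rose from 174 ± 26.6 to 796 ± 51.9 CPM, a log2 fold change of 2.19 ± 0.14 (adjusted p = 0.000127). Its relative *MYC4* fell from 117 ± 3.86 to 39.2 ± 4.37 CPM, by 1.58 ± 0.10 on the log2 scale (adjusted p = 0.000127). *MYC3*, the third of these relatives, rose by 0.41 ± 0.10 (adjusted p = 0.0376). *IQD1*, a calmodulin-binding regulator of glucosinolate genes, rose by 0.52 ± 0.12 (adjusted p = 0.0333), a call lost under 7 of 17 alternatives, among them each of the fits without Mock 2, Mock 3, DEX 1 or DEX 2 (adjusted p 0.0810 to 0.119). The DOF factor gene *OBP2* rose by 0.57 ± 0.15, barely past the threshold (adjusted p = 0.0492). The calls of *OBP2* and *MYC3* were not followed through the alternatives.

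In tryptophan supply, 2 of 13 genes rose and the other 11 did not pass. *ASA1*, the stress-inducible alpha subunit of anthranilate synthase, rose from 62.1 ± 6.59 to 199.6 ± 28.1 CPM (log2 fold change 1.69 ± 0.13, adjusted p = 0.000307). *ASA2*, the other alpha subunit gene, averaged 29.4 CPM in Mock and 28.5 CPM in DEX. *TSB2*, a tryptophan synthase beta subunit gene, rose by 0.94 ± 0.14 (adjusted p = 0.00468). *IGPS*, for indole-3-glycerol phosphate synthase, missed the threshold at an adjusted p of 0.0501, with a log2 fold change of 0.62. Reads of *PAI1* and *PAI2* were mostly shared with copies, with 26.3% and 24.6% unique, so these genes are uncertain.

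In the core and sulfur steps, 4 of 12 genes rose and 8 did not pass. *APK2*, an adenosine phosphosulfate kinase that makes the sulfate donor for sulfotransferases, rose from 315 ± 65.7 to 649.8 ± 65.2 CPM (1.04 ± 0.17, adjusted p = 0.00767). *GSTF11*, a glutathione transferase gene, rose by 1.03 ± 0.19 (adjusted p = 0.0140), a call lost without Mock 2 (0.0618) or DEX 2 (0.0501). *GGP1*, a gamma-glutamyl peptidase gene, rose by 0.78 ± 0.17 (adjusted p = 0.0228), a call lost without Mock 2, Mock 3, DEX 1 or DEX 2 (0.0612 to 0.0837). *GSTF9* rose too. The sulfotransferase genes *SOT17* and *SOT18*, whose enzymes mainly serve aliphatic glucosinolates, had log2 fold changes of 0.32 and 0.51 that did not pass.

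Among the other indole side chain genes 2 of 8 rose, and both calls were fragile. *IGMT5*, which encodes an indole glucosinolate methyltransferase, was at 4.09, 4.51 and 2.112 CPM in Mock and at 44.0, 15.2 and 6.76 CPM in DEX. Its log2 fold change was 2.63 ± 0.67 (adjusted p = 0.0459), a call lost without any 1 of Mock 1, Mock 2, Mock 3, DEX 1 and DEX 2 (0.0638 to 0.128). Without DEX 1 its log2 fold change was 1.62. *CYP81F4*, which acts before it, had 8 reads in Mock and 163 in DEX, mostly in DEX 1 at 3.54 CPM (4.25 ± 1.08, adjusted p = 0.0455), lost without any 1 Mock library (0.0847 to 0.163). Its log2 fold change was 2.71 without DEX 1 and 5.11 without Mock 1, and 0.71 on log2(RPKM + 1). Of its reads only 3.51% were unique, so reads from relatives cannot be told apart. *CYP81F1* and *CYP81F3*, relatives of *CYP81F2*, had log2 fold changes of 0.18 and 0.07, and *IGMT4* one of -0.96 ± 0.61, none past the threshold. Of the reads of *CYP81F1* only 24.3% were unique, so its value is uncertain.

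Of 19 genes of breakdown and transport 15 were tested, 3 rose and 1 fell. *NPF2.11* and *NPF2.10*, which encode the glucosinolate importers GTR2 and GTR1, rose from 140 ± 3.48 to 437 ± 11.5 CPM (1.64 ± 0.08, adjusted p = 6.08e-05) and from 201 ± 15.5 to 413 ± 110.4 CPM (1.04 ± 0.19, adjusted p = 0.0114). *NPF2.9*, which encodes the related transporter GTR3, fell by 0.65 ± 0.13 (adjusted p = 0.0162), lost without Mock 2, DEX 1 or DEX 2 (0.0534 to 0.0614). *NSP1*, a nitrile specifier gene, rose as well (1.17 ± 0.26, adjusted p = 0.0268), with 929, 503 and 558 CPM in DEX 1, 2 and 3. Of its reads 59.1% were unique, so part of its value may come from reads of relatives. The call of *NSP1* was not followed through the alternatives. The myrosinase genes *TGG1* and *TGG2* had log2 fold changes of -0.54 ± 0.44 and -0.18 ± 0.20 and did not pass.

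Of the 12 other genes that use tryptophan or indole acetaldoxime, for camalexin, cyanogenic compounds and auxin, 5 were tested. None of these 5 passed in edgeR, 3 had an unadjusted p below 0.05, and DESeq2 called 0. The most abundant was *CYP71B6*, with 47.7 ± 4.58 CPM in Mock against 57.9 ± 4.91 CPM in DEX (0.28 ± 0.10, adjusted p = 0.145). *YUC1*, for an auxin synthesis enzyme, and *CYP82C2*, for an enzyme of the cyanogenic branch, were listed at 0 reads in every library, where 3 reads would be 0.0773 to 0.0965 CPM. The auxin synthesis gene *TAA1* had 9 reads in Mock and 5 in DEX.

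In the aliphatic branch, made from methionine, 3 of 8 tested genes rose and the other 5 did not pass. *CYP79F2* rose by 0.94 ± 0.16 (adjusted p = 0.0103). The regulator gene *MYB29* rose by 0.77 ± 0.18 (adjusted p = 0.0359), lost without Mock 2, Mock 3, DEX 1 or DEX 2 (0.0939 to 0.148), and it is among the genes picked by the study. *MAM1* rose by 0.45 ± 0.11 (adjusted p = 0.0454), a call lost under 10 of 17 alternatives, each fit with 1 library left out included (0.0642 to 0.154). The list's median log2 fold change was 0.44, beside 1.10 for the 10 indole genes. Whether the 2 branches differed was not tested.

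**Figure D4:**
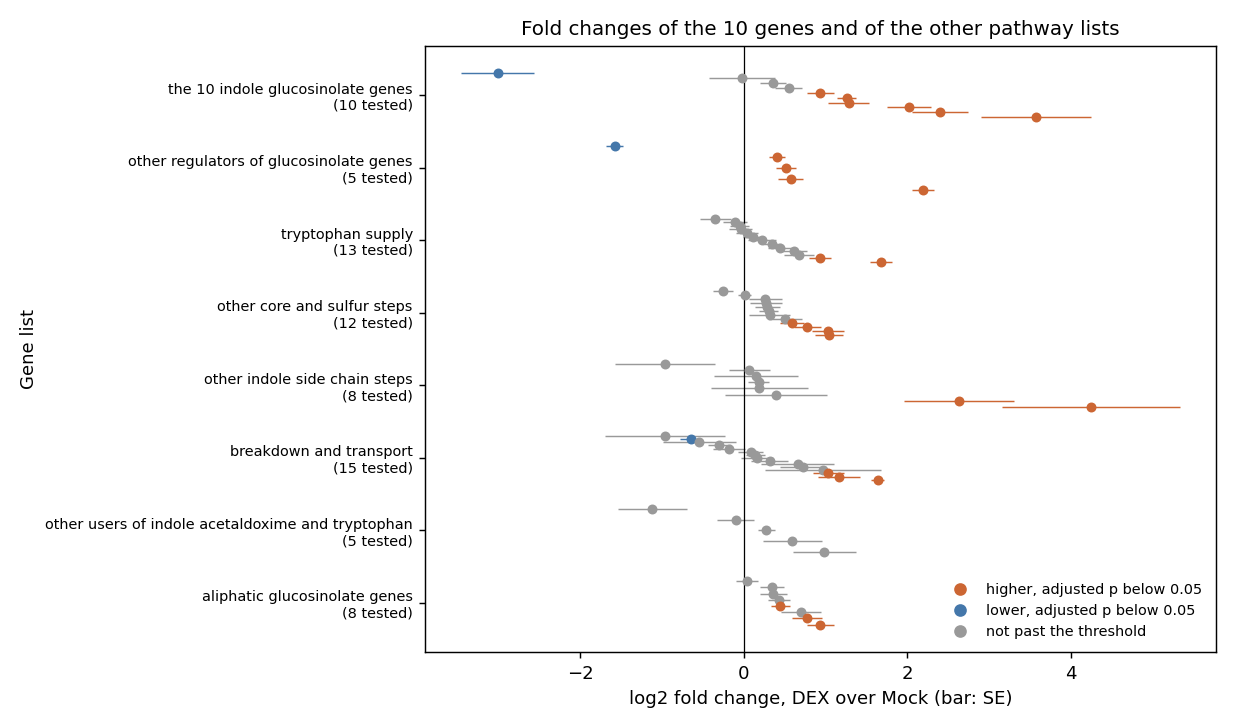
Log2 fold change of DEX over Mock with its SE for the 10 indole glucosinolate genes and for each of the 66 tested genes of the 7 other lists. Orange points passed an adjusted p of 0.05 as higher (6 of the 10 and 18 of the 66), blue points as lower (1 and 2), and grey points did not pass.

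The nearest annotated genes on each side of the 10 genes gave 20 neighbours, of which 12 were tested and 3 rose, beside 6.38% of all tested genes. These were *APK2*, 3436 bases below *CYP79B2*, which is a pathway gene itself, the receptor kinase gene *RLK1* beside *MYB34* (0.79 ± 0.18, adjusted p = 0.0296), and AT1G74070 beside *MYB122* (0.83 ± 0.18, adjusted p = 0.0249). The calls of *RLK1* and AT1G74070 were not followed through the alternatives. *SOT18* lies 151 bases from *SOT16*. The neighbours of *CYP81F2*, at 35 bases and 3786 bases, had log2 fold changes of 0.10 and -0.18 and did not pass.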

How the data were processed

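Total RNA of the second internodes was sequenced with a strand-marking (dUTP) library. As the paper's methods state, single-end reads were aligned by the authors to TAIR10 with CLC Genomics Workbench. The strand setting of the counting is not stated. The authors' tables give read counts per gene (total, unique, exon and intron) and RPKM, which the authors computed from exon reads, exon length and total gene reads. The deposited exon length is in bases. Entries without a gene name (5, with 0.093% to 0.135% of reads) were left out.

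Total gene reads of 3 DEX and 3 Mock libraries were compared with edgeR 4.0.16 in R 4.3.3 (filterByExpr, TMM, two-sided quasi-likelihood F test, Benjamini-Hochberg over 19598 genes, threshold 0.05). Depth was 30601253 to 37812400 reads, and the biological coefficient of variation was 15.8%. Reads carry no molecular identifiers, so floors of 3 reads cover counting error only. P-values set the difference between the groups against the spread between these libraries, whose RNA may have been pooled. The pipeline was tested on simulated data. These gave every gene the same spread, so they do not vouch for calls of genes with uneven replicates, such as *MYB34* and *CYP81F2*.

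The 10 genes and the pathway lists were chosen with earlier results of these data known. From each other list up to 3 called genes with the smallest adjusted p are described in full, or the most abundant gene where none was called, and the nearest genes on each side. *MYC3*, *OBP2*, *ASA2*, *IGPS*, *PAI1*, *PAI2*, *GSTF9*, *SOT17*, *SOT18*, *CYP81F1*, *CYP81F3*, *IGMT4*, *TGG1*, *TGG2*, *NSP1*, *YUC1*, *CYP82C2* and *TAA1* were named after their values were seen. Positions and sequences come from RefSeq (TAIR10.1), and coding sequences were aligned pairwise. Alternatives were other scaling factors (RLE, upper quartile, library totals), no filter, a filter at 1 CPM, unique or exon reads, DESeq2 1.42.0, limma 3.58.1 on log2(RPKM + 0.1) and log2(RPKM + 1), a replicate block, and each library left out.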

Additional observations from a re-analysis of the deposited data

How the results depend on the processing

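Of the 10 genes, 6 were past the threshold as higher under all scalings, filters, read classes and both limma fits, 7 with DESeq2, 8 with the replicate block, and 4 to 6 with 1 library left out. *CYP81F2* was past it as lower in all of these. *MYB51* changed sign with 1 library left out (-0.49 to 0.40). Over all genes 1110 rose and 1201 fell with upper-quartile factors and 1016 and 1278 with library totals alone, against 1250 and 1077, and 615 to 1198 rose and 690 to 1000 fell with 1 library left out, and for the other pathway genes 7 to 18 rose and 1 to 3 fell. Of the latter, 11 rose with limma on log2(RPKM + 0.1) and 11 on log2(RPKM + 1), against 18. The cause was not tested. Mock levels per length moved by less than 1 SD when TMM-scaled CPM was divided by exon length. Few reads limit *CYP81F2*, *CYP81F4* and *MYB34* in Mock.

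Deviations of same-numbered libraries correlated at 0.516, 0.0188 and 0.506. Those of Mock 3 with DEX 1 and of Mock 1 with DEX 3 correlated at -0.468 and -0.536. Mock 2 had low correlations with DEX 1, DEX 2 and DEX 3 (-0.0772, 0.0188 and 0.0538). These values do not settle whether replicate numbers pair the libraries, and the main fit used no pairing. With the replicate block 2258 genes rose and 1722 fell, and 32 and 4 of the other pathway genes, and *SUR1*, *UGT74B1* and *CYP71B6* were past the threshold (edgeR adjusted p = 0.0234 for *CYP71B6*).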

Other observations

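*MYB51* and *CYP81F2* had their highest level in library 3 of both groups. Of the 66 other pathway genes tested, 15 did so as well, and of all tested genes 20.6%. Among these 15 were *IGMT1*, *IGMT2*, *IGMT3* and *IGMT4*, for methyltransferases that follow the CYP81F hydroxylases. Of the reads of *IGMT1*, *IGMT3* and *IGMT4*, 72.6%, 55.5% and 81.7% were unique, so part of their values may come from reads of relatives. *IGMT1* had only 58 reads in Mock. *IGMT4* was at 20.6, 24.9 and 55.6 CPM in Mock and at 5.41, 15.5 and 31.0 CPM in DEX. *IGMT2* was at 1.06, 1.86 and 4.64 CPM in Mock and at 1.62, 2.17 and 4.91 CPM in DEX, with 62.4% of its reads unique. The nitrilase gene *NIT2* was at 5.57, 17.7 and 25.0 CPM in Mock and at 14.6, 14.8 and 65.4 CPM in DEX. *MYB34*, *CYP79B3* and 23 of the other pathway genes were highest in library 1 of both groups, as were 20.7% of all tested genes. These genes were singled out after their values had been seen, and replicate numbers have no order.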
